A study of Mus musculus with 6 samples.

Results

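The genes of the major histocompatibility complex (MHC) and of antigen presentation were examined in TM3, a cell line established from mouse Leydig cells, with and without overexpression of A20. The members were the protein-coding genes of the deposited count table whose symbols begin with H2-, without H2-Ke6, together with B2m, Tap1, Tap2, Tapbp, Tapbpl, Nlrc5, Ciita, Cd74, Erap1, Canx and Pdia3. These were 44 of 54532 genes in the table. RNA was sequenced in 6 libraries, 3 of TM3 cells labelled as overexpression controls with a wild-type genotype and 3 of TM3 cells labelled as overexpressing A20, all grown in DMEM/F12 with fetal bovine and horse serum. A20 is the product of Tnfaip3, which edits ubiquitin chains and dampens NF-kB signalling. The overexpression vector, the species of its sequence, the number of clones and whether replicates were separate cultures are not given in the labels, so p-values measure only the spread between these libraries, which may be technical.

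MHC class I molecules are made of a polymorphic heavy chain, encoded by H2 genes in the mouse, and the invariant light chain beta-2 microglobulin, encoded by B2m. In the endoplasmic reticulum they are folded with calnexin and loaded with peptides that the Tap1-Tap2 transporter imports, and nearly all nucleated cells show them to CD8 T cells and natural killer cells. MHC class II molecules are paired alpha and beta chains that assemble on the invariant chain Cd74, exchange its remnant for peptide with the help of H2-DM and are a hallmark of professional antigen-presenting cells. Interferon and NF-kB signalling both act on class I promoters, and testicular somatic cells are studied for how they limit immune recognition of germ cells.

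Total counts ran from 13841287 to 16917979 per library, and 3 counts corresponded to 0.177 to 0.217 CPM (counts scaled to the library total). Tnfaip3 stood at 33.7 to 43.6 CPM in the A20-overexpressing libraries and at 11.9 to 30.9 CPM in the controls. Control replicate 1 stood apart from the other 5 libraries: the summed level of 9 Leydig cell markers was 2047 CPM there and 4.25 to 8.88 CPM elsewhere. Hsd3b1, Lhcgr and Cyp17a1 had no count in the other 5, so these markers do not show a Leydig identity in those 5 libraries. Hsd17b3 had no count in any library, while Star and Insl3 had counts in all 6. Whether all libraries hold the same cells was not tested. Summed levels of marker lists of 3 other cell types were also highest in control replicate 1. These were 303 CPM against 132 to 183 CPM for Sertoli cells and 82.1 against 17.5 to 44.9 CPM for peritubular cells. For endothelium the sum was 36.7 against 3.05 to 4.85 CPM, of which Cdh5 made up 35.1 CPM. Of the Sertoli sum Clu made up 221 CPM there, and of the peritubular sum Acta2 made up 77.6 CPM. The markers of a list did not all rise together. Wt1 (Sertoli) was lowest there, at 77.5 against 117 to 152 CPM, as was Egfl7 (endothelium), at 1.04 against 3.05 to 4.47 CPM. Cnn1 (peritubular) in control replicate 1 lay within the range of the other 5. Each result is therefore given with all 6 libraries and without that library. Of 13 leukocyte and antigen-presenting cell markers, 10 were under 1 CPM in each library, and Ptprc, Adgre1 and Ms4a1 had no count. TM3 was established from BALB/c mice, whose H2 alleles differ from those of the C57BL/6J reference genome, and how this affected the counts of H2 genes was not tested.

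Class I RNA came mainly from B2m, H2-K1, H2-M10.1, H2-M3 and H2-T22, while the classical heavy chain gene H2-D1 had few counts outside 1 library. Levels of different genes are compared here in FPKM, the deposited counts per kilobase of gene, divided by a library size scaled by the authors. Averaged over the 6 libraries, B2m stood at 304 FPKM, H2-M10.1 at 32.9, H2-K1 at 26.3, H2-M3 at 22.1 and H2-T22 at 18.6 FPKM. H2-T23 followed with 3.95 FPKM, H2-Q4 with 1.85, H2-D1 with 1.06 and H2-T24 with 0.683 FPKM. H2-M10.1 ranged from 5.66 to 59.1 FPKM and H2-K1 from 18.8 to 35.8 FPKM, so the order of these neighbours is not separated beyond the spread between libraries. The order also depends on the gene length used. The deposited length exceeds the longest coding transcript for H2-K1 (2608 against 1619 bases) and H2-T22 (3414 against 1761 bases). For H2-M10.1 (1394 bases) and H2-M3 (1438 bases) both lengths are equal. The remaining class I heavy chain genes had means of at most 0.209 FPKM. Among the chaperones and loading factors the means were 458 FPKM for Pdia3, 301 for Canx, 53.6 for Tapbp, 11.8 for Tap1, 8.05 for Tap2, 5.23 for Tapbpl and 3.08 FPKM for Erap1. Of the 44 members, 19 averaged at least 1 FPKM and 8 had no count in any library.

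**Figure D1:**
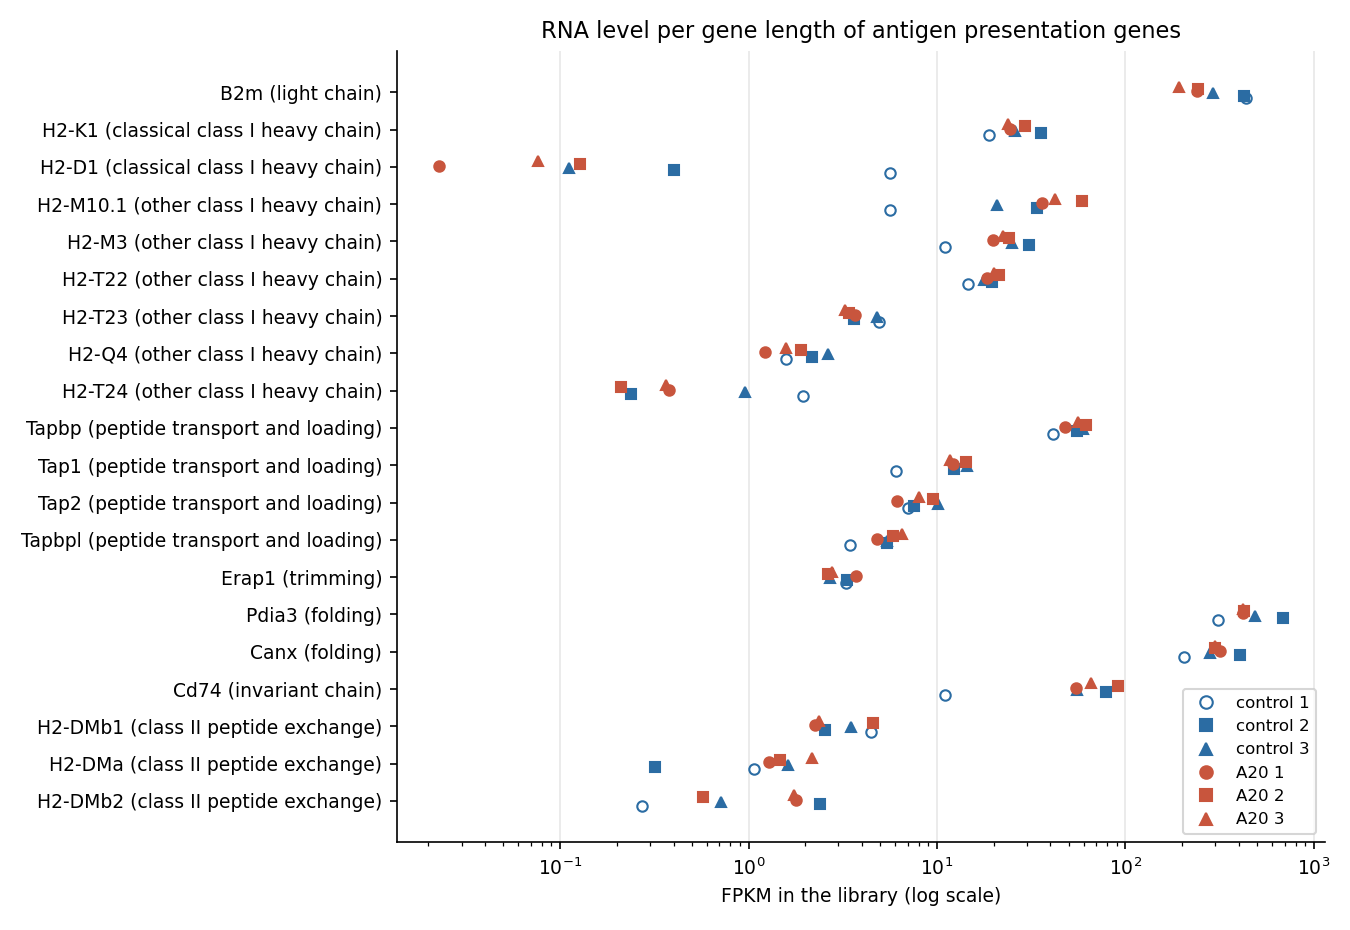
Level in FPKM (log axis) of the 19 tested members and H2-D1 in each library, ordered by role, with controls in blue, A20-overexpressing libraries in red and control replicate 1 as open circles. B2m, Pdia3 and Canx lie highest, and control replicate 1 stands away from the other libraries for H2-D1, H2-M10.1 and Cd74.

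Promoters of 4 class I genes are shown because the main class I results below rest on these genes. The windows were read from RefSeq sequences of build GRCm38.p6 and span 250 bases before to 50 bases after the annotated start site. Capitals mark every match, on either strand, to 4 short motifs: an NF-kB-like motif GGGNNTTCC, an interferon regulatory factor-like motif GAAANNGAA, the CCAAT box and the CRE core TGACG. Marked stretches do not overlap in these 4 windows. The RefSeq start of H2-D1 lies 364 bases inside the gene as deposited as its 5′ end is given there.
B2m, chr2:122147437-122147736, plus strand: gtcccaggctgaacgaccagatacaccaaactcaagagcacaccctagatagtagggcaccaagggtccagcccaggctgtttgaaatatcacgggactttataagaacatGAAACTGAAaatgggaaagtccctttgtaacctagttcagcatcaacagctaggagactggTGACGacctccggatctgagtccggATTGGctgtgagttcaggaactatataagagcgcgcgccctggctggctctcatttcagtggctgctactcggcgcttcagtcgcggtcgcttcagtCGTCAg
H2-K1, chr17:34000284-34000583, minus strand: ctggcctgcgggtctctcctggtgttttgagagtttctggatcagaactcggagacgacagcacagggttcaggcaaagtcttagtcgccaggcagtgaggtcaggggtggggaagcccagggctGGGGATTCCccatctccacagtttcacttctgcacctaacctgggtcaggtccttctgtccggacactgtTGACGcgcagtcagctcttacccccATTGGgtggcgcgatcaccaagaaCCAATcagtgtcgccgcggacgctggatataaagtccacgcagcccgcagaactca
H2-D1, chr17:35262844-35263143, plus strand: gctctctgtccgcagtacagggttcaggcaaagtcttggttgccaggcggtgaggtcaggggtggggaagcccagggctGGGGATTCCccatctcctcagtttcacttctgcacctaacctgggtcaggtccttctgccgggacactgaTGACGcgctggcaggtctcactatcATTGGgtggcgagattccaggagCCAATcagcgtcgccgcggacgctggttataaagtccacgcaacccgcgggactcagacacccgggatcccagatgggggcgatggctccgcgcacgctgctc
H2-M10.1, chr17:36326101-36326400, minus strand: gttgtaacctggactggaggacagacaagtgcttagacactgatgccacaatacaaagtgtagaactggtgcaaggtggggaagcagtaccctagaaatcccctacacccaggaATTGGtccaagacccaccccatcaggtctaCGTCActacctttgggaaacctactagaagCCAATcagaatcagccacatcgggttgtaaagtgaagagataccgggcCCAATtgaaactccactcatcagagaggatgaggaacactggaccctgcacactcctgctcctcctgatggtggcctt

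The windows of H2-K1 and H2-D1 were alike in 64.8% of aligned positions, and both held the NF-kB-like letters GGGGATTCC, at position -125 in H2-K1 and -171 in H2-D1 from the start site. In both the CRE core followed 70 bases later and an inverted CCAAT box 25 bases after that. The B2m window held an interferon regulatory factor-like match at position -139, a CRE core at -78 and an inverted CCAAT box at -53. The exact letters GGGNNTTCC did not occur in the B2m or H2-M10.1 windows. Other spellings of the 4 motifs were not searched for, so an unmarked window says nothing about a factor or its sites. Across 36 members with a window, 8 held the NF-kB-like motif, 4 the interferon motif, 32 the CCAAT box and 16 the CRE core. The start sites used for H2-DMa, Tapbp and H2-DMb2 lay at -9664, 3579 and 1942 bases from the deposited gene start. Windows on chromosome 18, where Cd74 lies, were not read. These motifs occurred in 5.8%, 8.6%, 37.4% and 20.8% of 32817 windows of the same length, and the H2 genes are copies of one another rather than independent cases.

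B2m was the 1 member that edgeR called lower with A20 overexpression, and it passed the test only without control replicate 1. In control replicates 1, 2 and 3 it stood at 417, 343 and 251 CPM, and in the A20-overexpressing replicates at 206, 203 and 166 CPM. All 3 A20-overexpressing libraries lay below all 3 controls. The gene (ENSMUSG00000060802, GRCm38 chromosome 2, 122147686 to 122153083, plus strand) averaged 337 CPM ± 83.3 (SD, n = 3) in control and 192 CPM ± 22.4 (SD, n = 3) with A20. With all 6 libraries its log2 fold change was -0.78 ± 0.20 (SE), and edgeR's quasi-likelihood test gave an unadjusted p of 0.0044 and an adjusted p of 0.31. Without control replicate 1 the controls averaged 297 CPM ± 65.0 (SD, n = 2) and B2m was 1.59-fold lower, at a log2 value of -0.67 ± 0.17 (SE, edgeR adjusted p = 0.0298). Leaving out A20-overexpressing replicate 1, 2 or 3 as well gave log2 fold changes of -0.72, -0.72 and -0.57, about as large, but ended the call, with edgeR adjusted p of 0.0948, 0.0999 and 0.193. The size depended on the control: the log2 fold change was -0.38 (edgeR adjusted p = 0.178) with control replicate 3 as the lone control and -0.92 (edgeR adjusted p = 0.000156) with control replicate 2. On the deposited FPKM values limma-trend gave log2 fold changes of -0.66 to -0.65 and did not call B2m, with adjusted p of 0.179 to 0.319.

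Counts over the members are given beside those over all genes. With all 6 libraries, 0 of 19 tested members passed edgeR, where 0.0150% of the 13350 genes tested did, and 3 members had an unadjusted p under 0.05, where 10.0% of all genes did. DESeq2, which tested 36 members, called 1 lower, H2-D1, where it called 163 of 25861 genes (0.63%), and limma-voom called 0 of 19. Without control replicate 1, 1 of 19 passed as lower and 0 as higher, where 2.68% and 1.92% of 13658 genes passed in these directions, and 3 members had an unadjusted p under 0.05, where 21.6% of all genes did. The median log2 fold change of the tested members was -0.01 with all libraries, beside -0.03 for all genes, and -0.17 without control replicate 1, beside 0.00 for all genes (-0.00276). Among the 19 tested members, the ranges of the groups were apart for 2 higher (H2-M10.1 and H2-T22) and 1 lower (B2m) with all libraries, where 7.62% and 9.27% of genes did so, and for the same 2 higher and 4 lower members (B2m, Pdia3, H2-M3 and H2-Q4) without control replicate 1, where the shares were 20.7% and 17.2%. Among untested members under 1 CPM in each library, the ranges were also apart for H2-Q1 (higher, with and without that library) and for H2-M10.2 and H2-Q7 (lower, without it), on at most 7 counts a library.

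**Figure D2:**
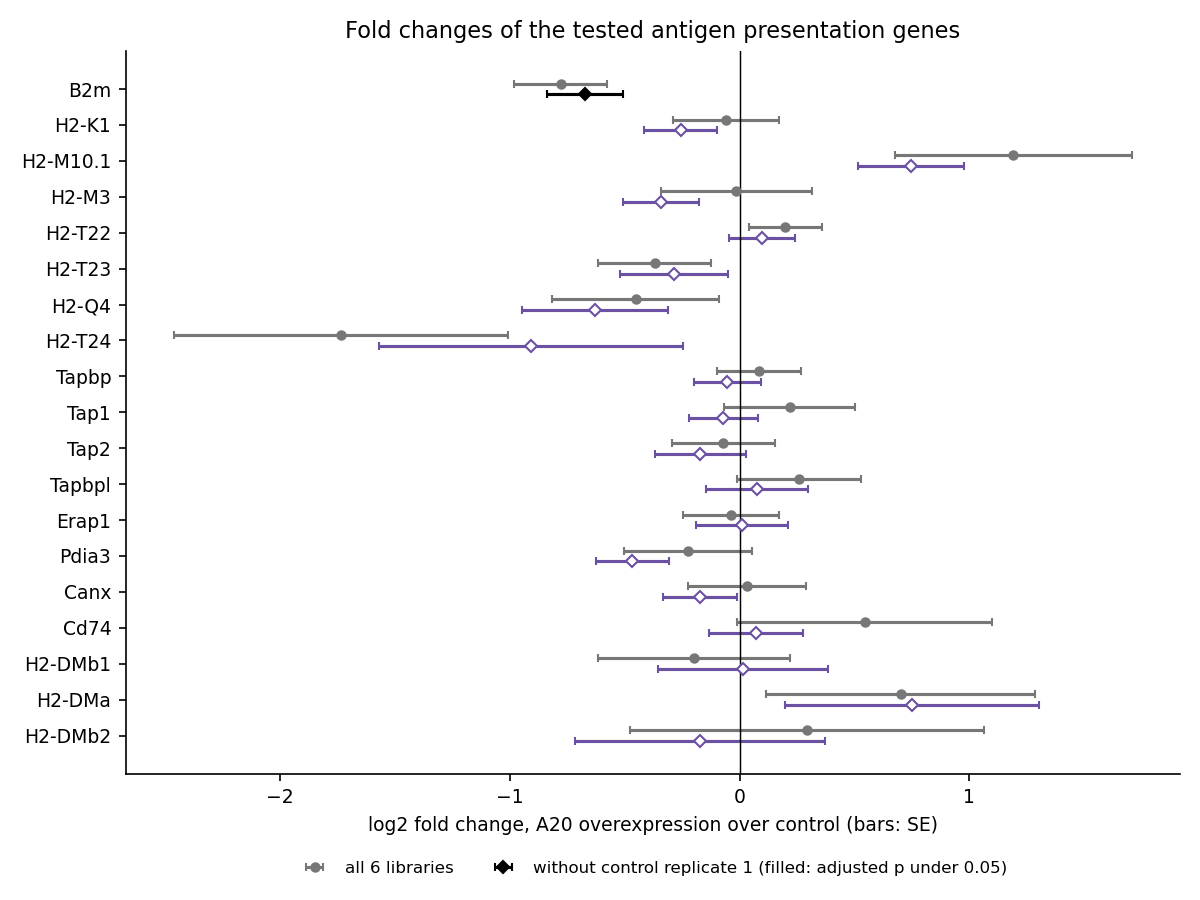
Fitted log2 fold change (A20 overexpression over control, bars are SE) of the 19 tested members, as grey circles with all 6 libraries and as diamonds without control replicate 1, filled in black where the adjusted p was under 0.05 and open otherwise. B2m is the 1 filled diamond, and H2-M10.1 and H2-DMa have the highest fitted values.

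H2-M10.1 had the highest fitted log2 fold change with all libraries and did not pass the test. This gene belongs to the M10 family of class I-like heavy chains, known from sensory neurons of the vomeronasal organ. It stood at 8.80, 44.3 and 29.0 CPM in control replicates 1, 2 and 3 and at 50.3, 80.4 and 59.1 CPM in the A20-overexpressing replicates. The groups did not overlap, and control replicate 1 was the lowest library. The log2 fold change was 1.19 ± 0.52 (SE, edgeR adjusted p = 0.492) with all libraries and 0.75 ± 0.23 (SE, edgeR adjusted p = 0.0804) without control replicate 1. In the latter comparison it did not pass in 13 of 17 alternatives, and its sign was positive in all 17. The 4 that passed were edgeR with no filter on low counts (adjusted p = 0.000453), DESeq2 (adjusted p = 0.0403), edgeR with the replicate number as a block (adjusted p = 0.000965) and edgeR with control replicate 3 as the lone control (log2 fold change 1.14, adjusted p = 0.00756). With control replicate 2 as the lone control the log2 fold change was 0.44 (edgeR adjusted p = 0.174). Leaving out A20-overexpressing replicates 1, 2 and 3 in turn gave edgeR adjusted p of 0.0742, 0.227 and 0.17, and the FPKM fits gave 0.216 to 0.37. The other 5 M10 genes had few counts: the 6 genes together stood at 9.58 CPM in control replicate 1, 45.0 and 29.3 CPM in the other controls and 50.4, 80.5 and 59.5 CPM with A20. No stretch of 100 bases in the H2-M10.1 transcript was found in another gene's annotated transcript, and 3.8% of its stretches of 50 bases were.

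Neither classical heavy chain gene passed edgeR's test. H2-K1 stood at 54.7, 87.4 and 68.1 CPM in the controls and at 64.0, 74.4 and 62.3 CPM with A20, and the groups overlapped. Its log2 fold change was -0.06 ± 0.23 (SE, edgeR adjusted p = 0.949) with all libraries and -0.26 ± 0.16 (SE, edgeR adjusted p = 0.372) without control replicate 1. H2-D1 held 249 counts in control replicate 1 and 14, 4, 1, 5 and 3 counts in control replicates 2 and 3 and A20-overexpressing replicates 1, 2 and 3. That is 16.2 CPM in control replicate 1 and 0.0591 to 0.976 CPM in the others. The gene did not pass the expression filter. DESeq2, which kept it, called it lower with all 6 libraries, and the contrast rests on control replicate 1. Whether differences from the reference allele lowered the H2-D1 counts was not tested. Of the H2-D1 transcript, 4.6% of stretches of 100 bases occurred in another gene, and of the H2-K1 transcript none did. For stretches of 50 bases the shares were 14.3% and 8.8%. The read length is not given in the sources used here.

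**Figure D3:**
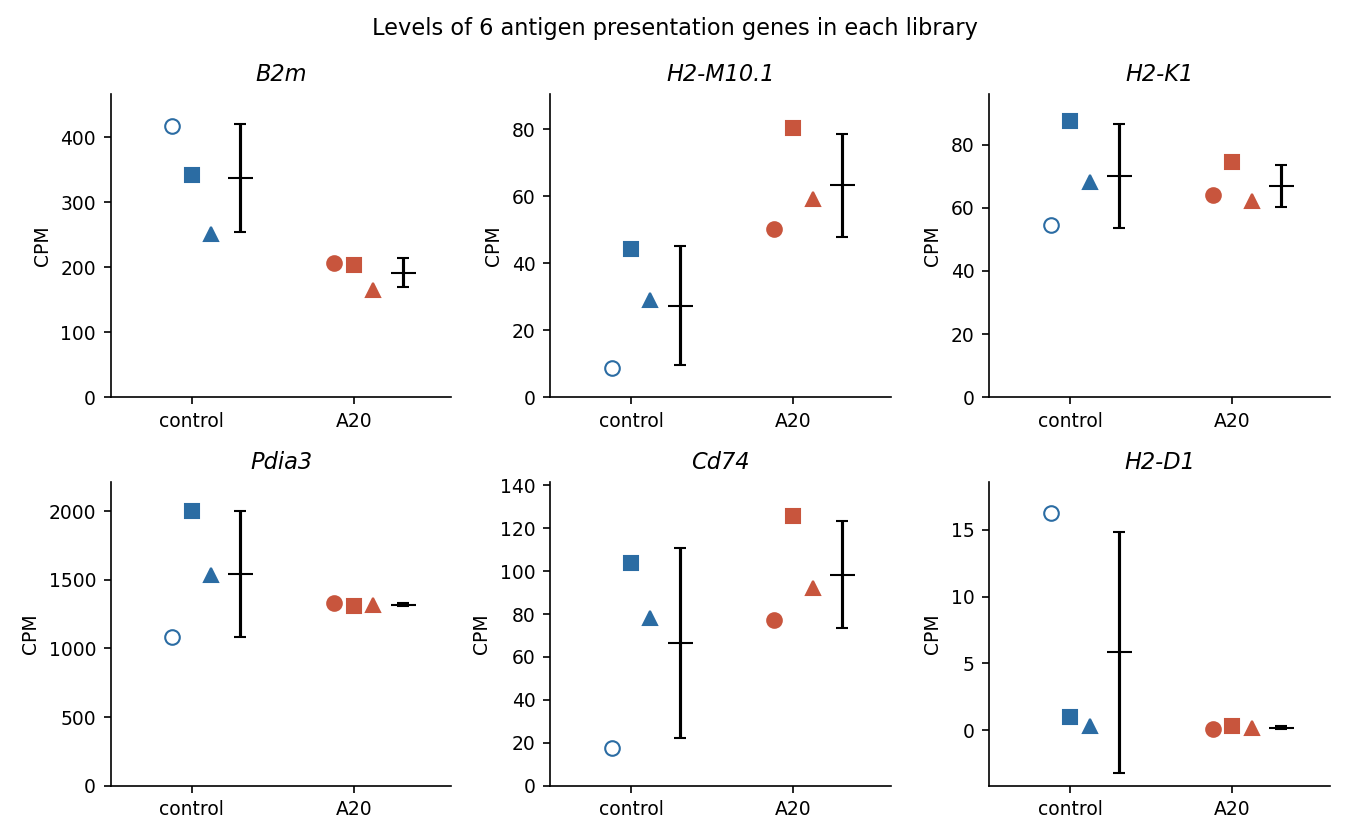
CPM of B2m, H2-M10.1, H2-K1, Pdia3, Cd74 and H2-D1 in each control (blue) and A20-overexpressing (red) library, with symbols for replicates 1 (circle), 2 (square) and 3 (triangle), control replicate 1 open, and the mean and SD of each group of 3 at the side. The groups are apart for B2m and H2-M10.1, and control replicate 1 is the lowest library for H2-M10.1, H2-K1, Pdia3 and Cd74 and the highest for B2m and H2-D1.

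None of the other tested class I heavy chains passed the test. H2-M3, which presents N-formylated peptides of bacteria and mitochondria, stood at 17.6, 41.5 and 36.1 CPM in the controls and at 28.5, 33.7 and 32.3 CPM with A20. Without control replicate 1 its groups did not overlap, and its log2 fold change was -0.34 ± 0.17 (SE, edgeR adjusted p = 0.241). H2-T22, a ligand of gamma-delta T cell receptors, stood at 55.9, 62.2 and 61.1 CPM in the controls and at 63.0, 71.1 and 68.8 CPM with A20. Its groups did not overlap either, yet the log2 fold change was 0.20 ± 0.16 (SE, edgeR adjusted p = 0.701) with all libraries. H2-T23, whose product shows signal peptides of other class I chains to natural killer cell receptors, stood at 15.8, 9.76 and 13.9 CPM in the controls and 10.7, 9.65 and 9.41 CPM with A20, with overlapping groups. H2-Q4 stood at 4.56, 5.30 and 6.94 CPM in the controls and 3.19, 4.79 and 4.11 CPM with A20, and its groups were apart only without control replicate 1. H2-T24 stood at 4.76, 0.488 and 2.10 CPM in the controls and at 0.828, 0.447 and 0.795 CPM with A20, with control replicate 1 the highest library. Adjusted p in edgeR for H2-M3, H2-T22, H2-T23, H2-Q4 and H2-T24 ran from 0.49 to 0.991 with all libraries and from 0.241 to 0.75 without control replicate 1. H2-Q4 and H2-T22 overlap antisense transcripts, by 496 and 1003 exon bases, which cannot be told apart from them because the strand setting of the counting is not given in the sources used here. H2-T22 also shared 9.8% of its stretches of 100 bases with H2-T10, a neighbouring copy annotated as a polymorphic pseudogene. Of its stretches of 50 bases it shared 37.9% with H2-T10.

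Summed per gene length, the 24 class I heavy chain genes gave 65.1, 128 and 98.7 FPKM in control replicates 1, 2 and 3 and 104, 140 and 115 FPKM with A20, with overlapping groups. B2m gave 435, 426 and 290 FPKM in the controls and 238, 242 and 192 FPKM with A20. The ratio of B2m to summed heavy chain FPKM was 6.68, 3.32 and 2.94 in the controls and 2.29, 1.73 and 1.68 with A20, so each A20-overexpressing library lay below each control. B2m alone was already apart between the groups in this direction, so the ratio is not a separate result. H2-K1 made up 28.9%, 27.9% and 26.3% of the heavy chain sum in the controls and 23.5%, 20.9% and 20.8% with A20. H2-M10.1 made up 8.69%, 26.4% and 21.0% in the controls and 34.5%, 42.2% and 36.9% with A20. The shares belong to a single sum and are not independent of one another. The sums, shares and ratio also depend on the deposited gene lengths. These ratios combine members chosen with earlier results known and are given without a test.

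**Figure D4:**
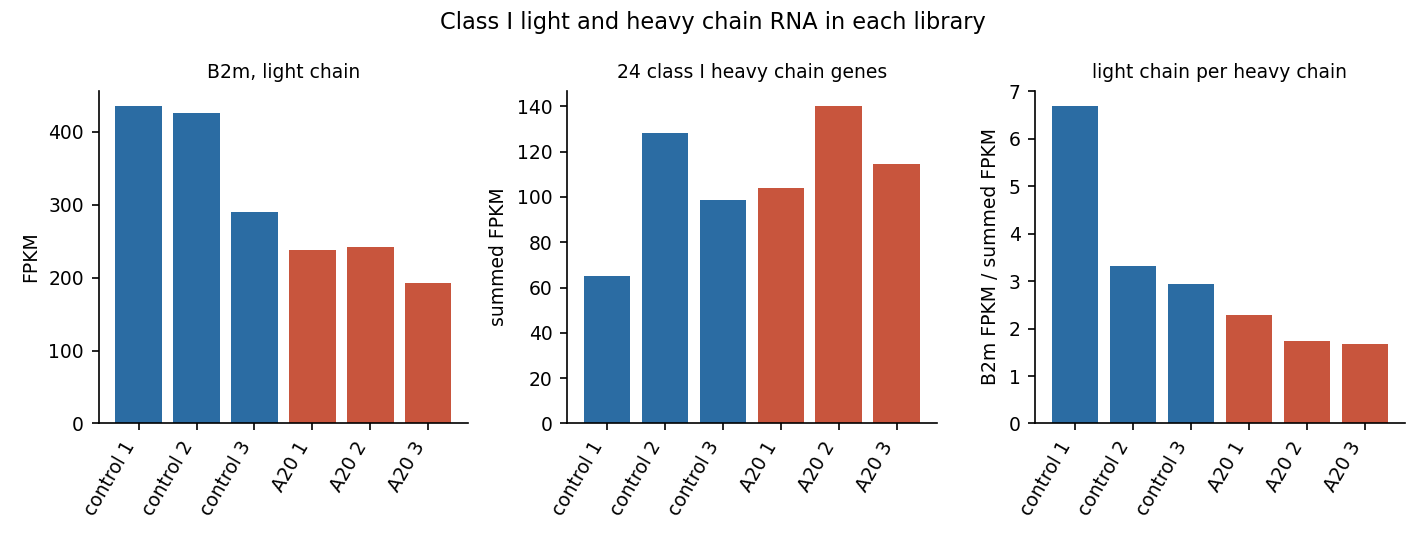
FPKM of B2m, summed FPKM of the 24 class I heavy chain genes and the ratio of the former to the latter in each library (bars start at 0, controls blue, A20-overexpressing libraries red). B2m and the ratio are lower in each A20-overexpressing library than in each control, while the heavy chain sums overlap.

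None of the 5 peptide import, editing and trimming genes passed the test in either comparison. Tap1 and Tap2 encode the transporter that carries cytosolic peptides into the endoplasmic reticulum. Tap1 stood at 37.1, 62.9 and 79.3 CPM in the controls and at 67.3, 75.8 and 64.2 CPM with A20. Tap2 stood at 29.6, 26.8 and 38.5 CPM in the controls and at 23.2, 35.1 and 30.3 CPM with A20. Both overlapped between groups, and control replicate 1 was the lowest library for Tap1. Tapbp, which encodes the bridging factor tapasin, stood at 152, 171 and 196 CPM against 159, 198 and 186 CPM, and the related peptide editor gene Tapbpl at 9.06, 11.9 and 12.8 CPM against 11.3, 13.4 and 15.4 CPM. The aminopeptidase gene Erap1 stood at 26.7, 22.7 and 19.9 CPM in the controls and at 27.1, 18.8 and 20.2 CPM with A20. For these 5 genes the log2 fold changes ran from -0.07 to 0.26 with all libraries and from -0.17 to 0.08 without control replicate 1, with edgeR adjusted p of at least 0.781 and 0.666. Exons of Tap1 overlap the proteasome gene Psmb9 by 212 bases, those of Erap1 overlap Cast by 834 bases and those of Tapbp overlap Gm19412 by 904 bases, all on the opposite strand. Tap2 exons overlap Gm15821 by 533 bases and Gm20496 by 165 bases, also on the opposite strand. On the same strand, Tapbp exons share 149 bases with Zbtb22.

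The folding genes were abundant and did not pass the test. Pdia3, a disulfide isomerase of the peptide loading complex, stood at 1086, 2003 and 1539 CPM in the controls and at 1328, 1307 and 1320 CPM with A20. The A20-overexpressing libraries were close to one another and lay between control replicate 1 and the other controls. Its log2 fold change was -0.22 ± 0.28 (SE, edgeR adjusted p = 0.821) with all libraries and -0.47 ± 0.16 (SE, edgeR adjusted p = 0.0944) without control replicate 1. Canx, the lectin chaperone calnexin, stood at 1072, 1783 and 1326 CPM in the controls and at 1497, 1359 and 1404 CPM with A20, with overlapping groups. Its log2 fold change was 0.03 ± 0.26 (SE, edgeR adjusted p = 0.975) with all libraries and -0.17 ± 0.16 (SE, edgeR adjusted p = 0.584) without control replicate 1. Control replicate 2 was the highest library for both genes.

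Cd74 RNA was abundant while the class II chain genes had few or no counts. The invariant chain gene stood at 17.4, 104 and 78.2 CPM in the controls and at 77.0, 126 and 92.3 CPM with A20. Control replicate 1 was far below the other 5 libraries, which averaged 5.49-fold more, and the remaining libraries overlapped between groups. The log2 fold change was 0.54 ± 0.56 (SE, edgeR adjusted p = 0.777) with all libraries and 0.07 ± 0.20 (SE, edgeR adjusted p = 0.879) without control replicate 1. H2-Aa and H2-Eb2 had no count, H2-Ab1 had 2 counts in 1 control library, and H2-Eb1 had 3 counts in the same library and 2 in A20-overexpressing replicate 2. In the libraries without a count, these genes may lie at up to 0.177 to 0.217 CPM by counting error alone. The macrophage-associated gene Cd68 was at 3.71 CPM in control replicate 1 and 19.3 to 38.7 CPM in the others. The 13 leukocyte markers summed to 7.23 CPM there, 34.3 to 36.3 CPM in the other controls and 24.4 to 44.7 CPM with A20. Outside control replicate 1, Cd68 alone made up most of this sum. Lyz2 was also lowest in control replicate 1, at 0.195 CPM, while Itgam had 0.847 CPM there and no count elsewhere. The part of these markers in the Cd74 level was not tested.

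The class II exchange genes were low and did not pass the test. H2-DMa, H2-DMb1 and H2-DMb2 encode the chains of H2-DM, which frees class II molecules of the invariant chain remnant. H2-DMb1 stood at 7.36, 3.55 and 5.20 CPM in the controls and at 3.37, 6.64 and 3.51 CPM with A20. H2-DMb2 stood at 0.521, 3.83 and 1.23 CPM in the controls and at 3.07, 0.958 and 2.98 CPM with A20. The 3 libraries with the most H2-DMb1 had the least H2-DMb2, at most 1.23 CPM, and the sum of both genes stayed between 6.43 and 7.88 CPM in all 6 libraries. The transcripts shared 13.7% of the stretches of 100 bases of H2-DMb1 and 12.9% of those of H2-DMb2, so the split of reads between them is uncertain. Adjusted p in edgeR were 0.902 and 0.922 for H2-DMb1 and H2-DMb2 with all libraries, and 0.987 and 0.894 without control replicate 1. H2-DMa stood at 1.95, 0.488 and 2.67 CPM in the controls and at 2.13, 2.36 and 3.58 CPM with A20, with an edgeR adjusted p of 0.721 with all libraries and 0.456 without control replicate 1. Exons of H2-DMa overlap the gene Brd2 by 360 bases on the opposite strand, and the strand setting of the counting is not given. H2-Oa, whose product inhibits H2-DM, had 3 counts in all, spread over 3 libraries, and H2-Ob had none.

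**Figure D5:**
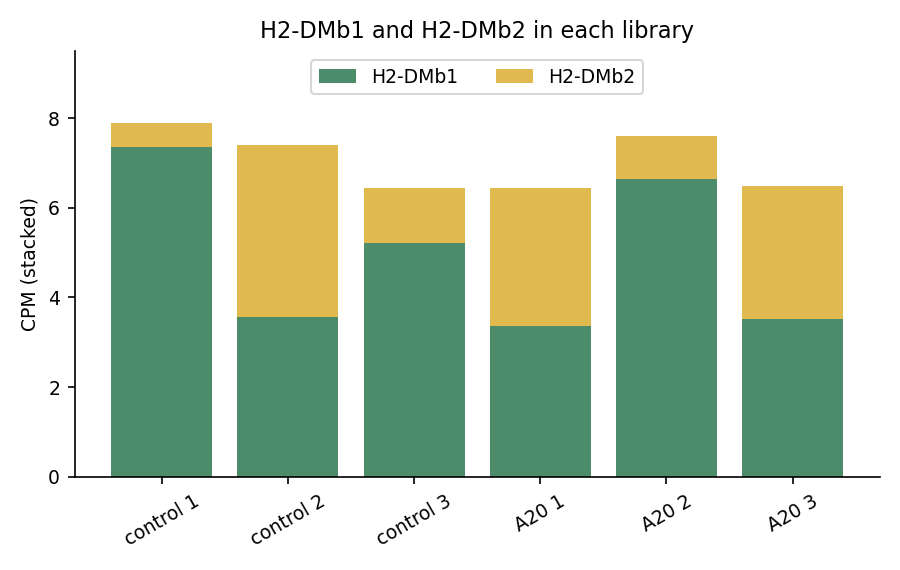
Stacked CPM of H2-DMb1 (green) and H2-DMb2 (yellow) in each library. The sum stays between 6.43 and 7.88 CPM while the share of each gene changes between libraries of both groups.

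The transactivators of both classes were near the detection limit. Nlrc5, the coactivator of class I genes, held 9, 4 and 2 counts in the controls and 6, 2 and 1 counts with A20, 0.0662 to 0.586 CPM. Ciita, the coactivator of class II genes, held 3 counts in control replicate 1 and 0 in the other 5 libraries. Neither passed the expression filter. In all, 25 members were not tested, and 22 of these stayed under 1 CPM in each library. Besides H2-D1, the exceptions were H2-Q2, with 23 counts in control replicate 2 and at most 6 elsewhere, and H2-M5, with 16 counts in control replicate 3 and at most 9 elsewhere. H2-Q1, H2-Q7, H2-Q10, H2-T3, H2-M10.2, H2-M10.3, H2-M10.4, H2-M10.5 and H2-M10.6 had at most 10 counts in a library. H2-Q6, H2-M1, H2-M2, H2-M9 and H2-M11 had none.

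Control replicate 1 lay outside the range of the other 5 libraries for most tested members. It was above all of them for 4 of 19 members, B2m, H2-T23, H2-T24 and H2-DMb1, below all of them for 11 and within their range for 4. Over all 13350 genes tested with all libraries, it was above for 40.7% and below for 21.7%. Among other genes of the pathway, Psmb8 and Psmb9, subunits of the interferon-inducible proteasome, were high in that library and were chosen after their values were seen. Psmb8 stood at 5.28 CPM there and at 0.0591 to 0.397 CPM elsewhere, and Psmb9 at 9.90 CPM against 1.72 to 2.72 CPM. Tap1, whose exons overlap those of Psmb9, was lowest there, at 37.1 CPM against 62.9 to 79.3 CPM.

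Of 51 further antigen presentation genes, in the lists of peptide supply, endoplasmic reticulum folding, the endosomal class II route, transcription, interferon receptors and class I-like molecules, 48 were tested. With all 6 libraries edgeR called 0 of 48, where 0.0150% of all genes passed, and 3 had an unadjusted p under 0.05, where 10.0% of all genes did. DESeq2 and limma-voom called 0 as well. Without control replicate 1, 1 of 48 passed edgeR as lower and 0 as higher, where 2.68% and 1.92% of all genes did. The ranges of the groups were apart for 6 lower and 0 higher with all libraries, where 9.27% and 7.62% of all genes did so. Without control replicate 1 they were apart for 14 lower and 4 higher, where the shares were 17.2% and 20.7%. The gene that passed edgeR was Psme2, a subunit of the proteasome activator. Psme2 stood at 70.8, 45.1 and 43.5 CPM in the controls and at 32.8, 29.4 and 30.3 CPM with A20. Its log2 fold change was -0.56 ± 0.15 (SE, edgeR adjusted p = 0.0481) without control replicate 1 and -0.74 ± 0.19 (SE, edgeR adjusted p = 0.274) with all libraries. The call was lost in 13 of 17 alternatives, among them upper-quartile factors, limma-voom and leaving out any 1 A20-overexpressing library, while the log2 fold change stayed close to its size: -0.55, -0.56 and -0.60, -0.53 and -0.54 in these.
The most abundant gene of each list did not pass in either comparison. Without control replicate 1 the log2 fold changes were -0.28 for the aminopeptidase gene Npepps, -0.35 for the chaperone gene Hspa5, -0.35 for the endosomal protease gene Ctsl, 0.12 for the NF-kB subunit gene Rela, 0.10 for the interferon receptor kinase gene Jak1 and -0.03 for Procr, an MHC-like receptor of protein C. The next lowest adjusted p were those of Stat2 (log2 fold change -0.47, edgeR adjusted p = 0.0664) and Calr, the loading chaperone calreticulin (-0.47, edgeR adjusted p = 0.0779), both chosen after their values were seen. The median log2 fold change of the 48 genes was -0.12 with all libraries and -0.08 without control replicate 1, beside -0.03 and 0.00 (-0.00276) for all genes. The cysteine protease gene Ctss, which trims the invariant chain in antigen-presenting cells, had 1 count in all.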

How the data were processed

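RNA-seq libraries were made from total RNA with a SMARTER mRNA kit, per the labels' protocols. The deposited whole-number counts were used as the authors left them. Per the submitters' processing notes the build was GRCm38 (mm10); the aligner, counter and strand setting are not given in the sources used here. The FPKM values deposited by the authors equal the count per kilobase divided by a scaled library size, and were used to compare levels between genes and in alternatives.

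Counts were tested with edgeR 4.0.16 (R 4.3.3): TMM, the default expression filter by group, robust quasi-likelihood fits with Benjamini-Hochberg correction across the genes kept and a threshold of 0.05, with group as the only term. The SE is the size of the log2 fold change divided by the square root of F. CPM uses the total count, and fold changes are A20 over control. Alternatives used DESeq2 1.42.0 and limma 3.58.1, and those on FPKM used a pseudocount of 1 or 0.1. Floors of 3 counts cover counting error alone, as no molecular identifiers are described.

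All tested members are named with values, as are pathway genes past the threshold and the most abundant of each list. The members, lists and comparisons were chosen with earlier results of these data known. Of 52 listed pathway symbols 51 were in the table. Members were compared with GENCODE M21, which held all 44, 34 at the same coordinates; shared stretches were counted in the longest coding transcript of each member against all transcripts, on both strands. The procedure was run on simulated data in which no library stood apart from its group, so that run does not cover such a case. Python 3.11.15 with Biopython 1.88 and matplotlib 3.10.9 read promoters and drew figures.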

Additional observations from a re-analysis of the deposited data

How the results depend on the processing

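With all 6 libraries, 0 members passed in the alternatives that kept every library except DESeq2, which called 1 (H2-D1), and leaving out 1 library at a time gave 0 to 1 members and 0 to 1 of the further pathway genes, the 1 being B2m and Psme2 without control replicate 1. Without control replicate 1, where 1 member passed, the count was 2 (B2m and H2-M10.1) with no filter on low counts, in DESeq2 and with the replicate block, and 0 with limma-trend on log2(FPKM + 1), on log2(FPKM + 0.1) and on genes averaging 1 FPKM or more. Leaving out a further library gave 0 to 5 members, the 5 when control replicate 2 was the lone control, whose spread is then taken from the A20-overexpressing libraries. For the further pathway genes the count of 1 became 0 with upper-quartile factors, library size alone, limma-voom, the 3 FPKM fits, the replicate block and the fit without robust estimation, became 2 in DESeq2 (Calr and Psme2), and ran from 0 to 10 when a further library was left out. The cause of these changes was not tested. B2m kept its sign in each of 18 and 17 alternatives of the 2 comparisons and passed in 1 and 10. Of 340 and 321 member values in the alternatives, 24 and 22 changed sign without a call and 0 changed sign with one. Over all genes, the 2 calls with all libraries became 23 with no filter, 163 in DESeq2, 628 without control replicate 1 and 0 in 12 other alternatives, and the 628 without control replicate 1 became 1173 with no filter, 0 in both unfiltered FPKM fits, 35 on filtered FPKM and 142 to 2423 when a further library was left out. Samples of the same number did not deviate together (r = 0.02, 0.11 and -0.03 across 13350 genes), so the replicate block pairs by number only, and 1 of 6 samples correlated best with its own number. Genes under about 1 CPM rest on fewer than 20 counts a library, which limits what can be said of 22 of the 25 untested members.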

Other observations

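H2 genes outside the protein-coding members were low as well. The pseudogene H2-K2 held 19 counts in control replicate 1 and 0 in the other 5 libraries, the same library in which H2-D1 was high. The polymorphic pseudogene H2-T10 stood at 2.22, 5.16 and 5.35 CPM in control replicates 1, 2 and 3 and at 2.84, 4.54 and 4.70 CPM in the A20-overexpressing replicates, with overlapping groups. H2-Bl, another polymorphic pseudogene, held 11, 10 and 7 counts in the controls and 5, 3 and 2 counts with A20, so the groups did not overlap; it was not tested. These genes were chosen after their values were seen.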
